A study of Aspergillus nidulans with 6 samples.

Results

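Of the 1375 genes in the deposited comparison of celAΔ with its control strain in Aspergillus nidulans, 20 were selected as genes of amino acid metabolism from their annotation. A row was kept when its annotation held aminotransferase, transaminase, the words amino acid, the name of 1 of several amino acids, or homogentisate or crotonoyl. Rows naming transporters, permeases, kinases, peptidases, tRNA enzymes, phosphatases, transcription factors, oxygenases or methyltransferases were dropped. The terms were found in 40 rows, of which 18 were dropped by an excluded word. Another 2 were left out by name, namely otaA, annotated as ornithine aminotransferase, and ANIA_02248, annotated as a 4-aminobutyrate aminotransferase. The terms use no expression value, but the table had been selected on these libraries and the terms were chosen with earlier results of these data known. Of the 20 genes, 17 encode enzymes and the other 3 encode serine-threonine rich proteins of the cell surface. These 3 matched the word threonine alone, so the surface proteins are given separately. Among the enzymes biA belongs to biotin synthesis, which leaves at most 16 genes that the name amino acid metabolism describes.

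Mycelium of SAA.111, the control strain, and of celAΔ was sequenced in 3 libraries each, from separate cultures per the labels. SAA.111 carries veA1, biA1, ΔargB::trpC, riboB2, pyroA4 and wA3, and celAΔ was made in it by replacing celA (ANIA_08444) with the argB marker (ANIA_04409). Both strains thus shared the mutations of SAA.111, but only celAΔ carried a functional argB, and no library had the marker without the deletion. Any effect of argB therefore cannot be told apart from that of the deletion. The 3 celAΔ cultures belong to 1 clone, since only 1 transformant proved stable, and the p-values measure the spread between cultures of this clone and of the control. All cultures grew in liquid minimal medium with 0.4% glucose and 10 mM ammonium tartrate at 37 °C for 3 days per the labels. Another passage of the paper gives a later age for them. Supplements for the auxotrophic mutations are not given in the sources used here. The paper reports that celAΔ grew stably without arginine, and whether both strains received the same arginine is not known. The sample titles call celA downregulated and the descriptions call it deleted.

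Aminotransferases move the amino group of an amino acid to a 2-oxo acid and need pyridoxal phosphate as cofactor. They connect the breakdown of most amino acids with their synthesis, and with the central carbon intermediates pyruvate, oxaloacetate and 2-oxoglutarate. Decarboxylases remove the carboxyl group and give amines, while ammonia-lyases release the nitrogen as ammonia. Wild-type A. nidulans uses many amino acids as sources of nitrogen or carbon, and it can make all of them when ammonium is supplied.

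The targeted gene separated the strains in the direction of the labels. celA, annotated as a putative cellulose synthase, had 198, 197 and 111 unique reads in the control against 33, 38 and 36 in celAΔ, where it was lower but not at 0. The paper calls this remaining expression negligible and holds that it probably came from residual heterokaryons, that is, from nuclei that kept celA. Mapped totals recovered from reads, gene lengths and RPKM ranged from 3300251 to 3706233 reads in the control and from 4176645 to 5205011 in celAΔ. RPKM scales the reads of a gene to its length and to these totals. Of these totals, unique reads on the listed genes took 14.9 to 15.1% in the control and 19.7 to 21.9% in celAΔ. The authors kept a gene in the table only when it had passed their own test and a fold limit on these libraries. Every adjusted p-value below is therefore not independent evidence of a change, and genes of amino acid metabolism outside the table were not analysed here.

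In celAΔ, 16 of the 17 enzymes were lower than in the control and 1 was higher. The comparison used the quasi-likelihood test of edgeR on the unique reads, and a gene was called changed at a Benjamini-Hochberg adjusted p below 0.05, taken over all listed genes, with a log2 fold change (FC) beyond 1 in either direction. All 20 genes passed, 18 lower and 2 higher. Of all listed genes 93.6% passed, 52.5% lower and 41.1% higher. Passing is thus close to the rule in this table, and the count of 20 by itself sets these genes apart in no way. By mean RPKM, 53.3% of all listed genes were lower in celAΔ, beside 18 of these 20. The median log2 FC was -1.46 over the 20 genes and -1.49 over the 17 enzymes, beside -1.04 over all listed genes. Over the 18 genes that fell it was -1.55, beside -1.73 over all listed genes with a negative log2 FC. The 3 celAΔ libraries lay below the 3 control libraries in 18 genes and above them in 2. Of all listed genes 52.7% had celAΔ wholly below and 46.5% wholly above the control, 99.3% in either direction.

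**Figure D1:**
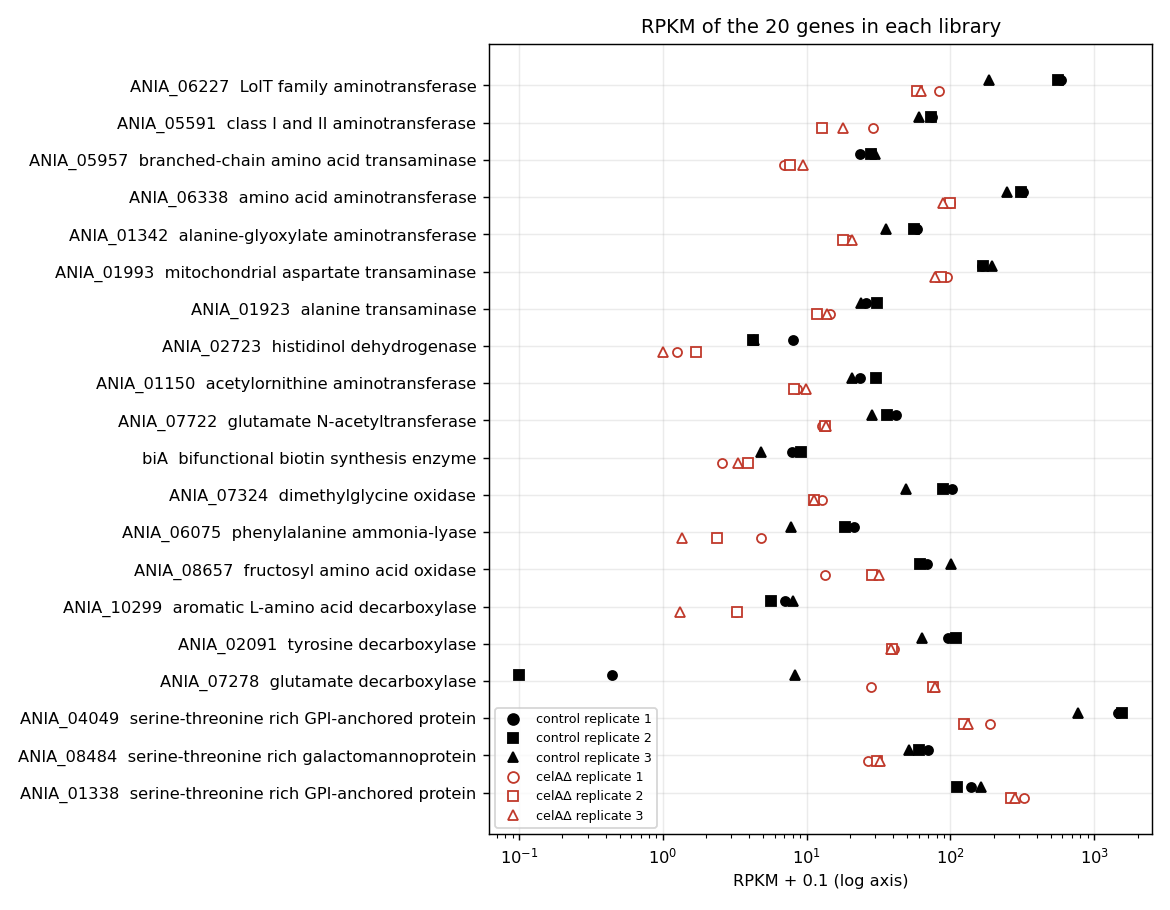
RPKM plus 0.1 (log axis) of each of the 20 genes in each library; filled black symbols are the 3 control libraries, open red symbols the 3 celAΔ libraries, and the symbol shape gives the replicate. In 18 genes the red symbols lie to the left of all black ones, while ANIA_07278 and ANIA_01338 show the opposite order.

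The 7 aminotransferases outside the biosynthesis group were all lower in celAΔ, with log2 FC from -2.71 to -1.01. Together they gave 1252, 1228 and 777 RPKM in the control libraries and 346, 293 and 292 RPKM in celAΔ. The mean sum of the control was 1086 ± 268 RPKM, against 310 ± 30.8 RPKM for celAΔ (SD, n = 3 each), or 28.6% of the control.

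The most abundant enzyme of the set in the control was ANIA_06227, an aminotransferase family protein annotated as LolT. LolT takes its name from a pyridoxal phosphate enzyme of loline alkaloid synthesis in fungal endophytes of grasses. Its RPKM was 584, 564 and 184 in the control and 82.8, 58.2 and 62.7 in celAΔ. Control replicate 3 was thus about midway between the other controls and celAΔ on the log2 scale, and still above every celAΔ library. Its log2 FC was -2.71 ± 0.51 (SE, adjusted p = 0.00407, edgeR), the strongest decrease among the aminotransferases. ANIA_06227 made up 46.6 and 45.9% of the summed aminotransferase RPKM in control replicates 1 and 2. In control replicate 3 it was 23.7%, and in celAΔ it was 19.9 to 24.0%.

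ANIA_05591 is annotated as a class I and II aminotransferase without a named substrate. Its RPKM was 74.8, 73.3 and 60.8 in the control and 28.6, 12.8 and 17.9 in celAΔ. The controls were close to each other, and celAΔ replicate 1 was the highest of its strain. The log2 FC was -1.82 ± 0.37 (SE, adjusted p = 0.00505, edgeR).

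Branched-chain amino acid transaminase, which interconverts leucine, isoleucine and valine with their 2-oxo acids, is encoded by ANIA_05957. The gene had 23.3, 28.0 and 30.0 RPKM in the control and 6.81, 7.51 and 9.35 RPKM in celAΔ. Here control replicate 3 was the highest library and not the lowest. The log2 FC of -1.78 ± 0.28 (SE, adjusted p = 0.00235, edgeR) came with the lowest adjusted p of the aminotransferases.

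ANIA_06338, an amino acid aminotransferase with no substrate named, was the enzyme with the highest level in celAΔ. It had 321, 308 and 247 RPKM in the control and 98.8, 99.4 and 89.1 RPKM in celAΔ. The libraries within each strain were alike, and the log2 FC was -1.61 ± 0.31 (SE, adjusted p = 0.00416, edgeR).

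The 3 remaining aminotransferases had changes close to or little above the fold limit. ANIA_01342, an alanine-glyoxylate aminotransferase, which makes glycine from glyoxylate, ranged from 35.3 to 58.1 RPKM in the control and from 17.7 to 20.6 RPKM in celAΔ (log2 FC -1.37 ± 0.30 SE). The mitochondrial aspartate transaminase ANIA_01993, an enzyme of the malate-aspartate shuttle, ranged from 165 to 195 RPKM and from 78.1 to 94.6 RPKM (log2 FC -1.03 ± 0.29 SE). Alanine transaminase, which links alanine with pyruvate and is encoded by ANIA_01923, ranged from 23.9 to 30.7 RPKM and from 11.7 to 14.3 RPKM (log2 FC -1.01 ± 0.27 SE). ANIA_01993 and ANIA_01923 lost the call in some fits with 1 library left out. For ANIA_01993 this happened without control replicate 3, at a log2 FC of -0.95, and without celAΔ replicate 2 or 3, at adjusted p-values of 0.0512 and 0.0588 in edgeR. For ANIA_01923 it happened without control replicate 2, at a log2 FC of -0.90, and without celAΔ replicate 2, at -0.93.

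**Figure D2:**
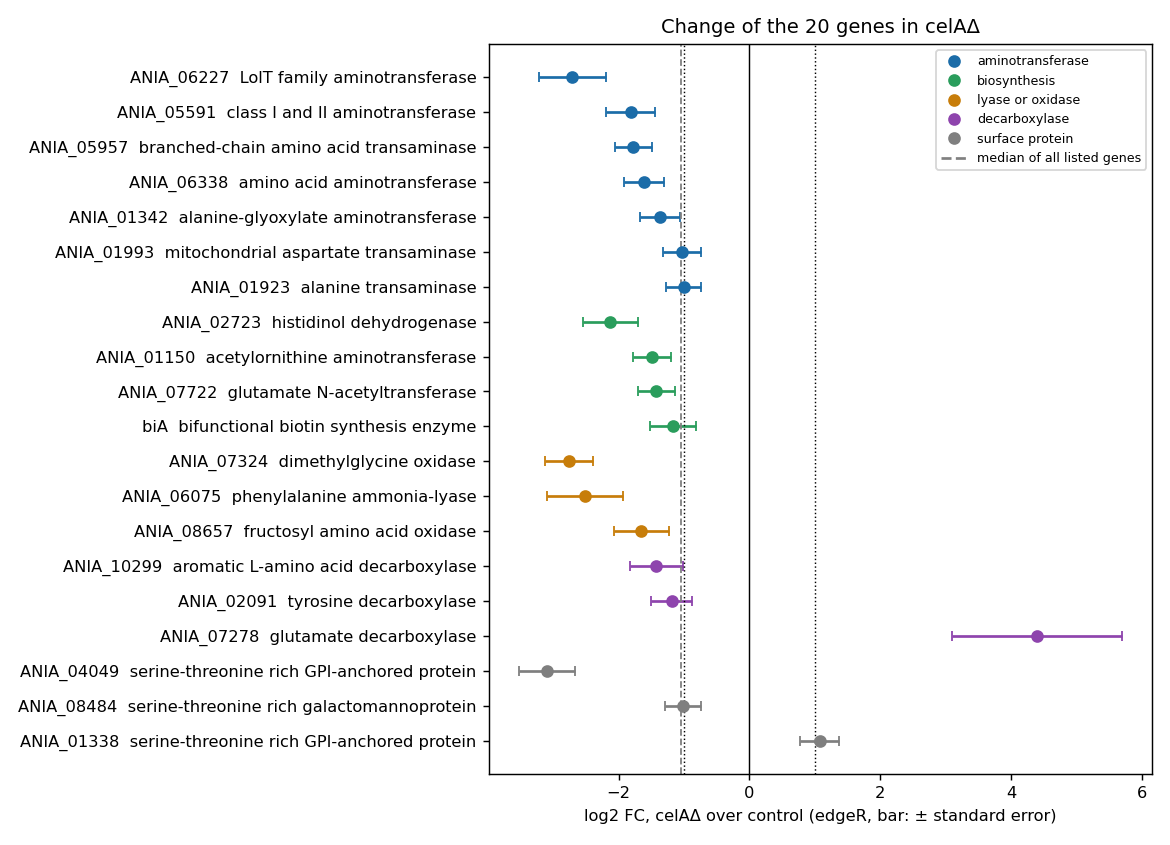
Log2 FC of the 20 genes in celAΔ over the control from edgeR, with bars of ± 1 standard error, coloured by role; dotted lines mark the fold limit of 1 in either direction and the dashed line the median of all listed genes, -1.04. The largest decreases are those of ANIA_04049, ANIA_07324, ANIA_06227 and ANIA_06075, and ANIA_07278 has by far the widest bar.

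The 4 enzymes of biosynthesis, 3 of them for amino acids and biA for biotin, were lower in celAΔ as well, with log2 FC from -2.13 to -1.16. Their summed RPKM was 81.1, 79.5 and 57.7 in the control and 24.7, 26.8 and 27.6 in celAΔ. This group was the least abundant by summed RPKM in both strains.

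Histidinol dehydrogenase catalyses the closing oxidation of histidine synthesis, and ANIA_02723 is annotated as a hypothetical form of it. It had only 39, 18 and 20 unique reads in the control against 7, 11 and 5 in celAΔ, equal to 7.99, 4.14 and 4.21 RPKM and to 1.15, 1.60 and 0.909 RPKM. Control replicate 1 was the highest, and the other 2 controls were alike. The log2 FC was -2.13 ± 0.42 (SE, adjusted p = 0.00449, edgeR), the strongest of the group and resting on few reads.

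A pair of enzymes from the acetylated pathway to ornithine and arginine changed by similar amounts. Glutamate N-acetyltransferase, which acetylates glutamate and is encoded by ANIA_07722, ranged from 28.2 to 41.8 RPKM in the control and from 12.7 to 13.6 RPKM in celAΔ (log2 FC -1.42 ± 0.28 SE, adjusted p = 0.0043, edgeR). Acetylornithine aminotransferase, encoded by ANIA_01150 and acting in the same pathway, ranged from 20.5 to 30.1 RPKM and from 8.06 to 9.87 RPKM (log2 FC -1.49 ± 0.29 SE, adjusted p = 0.00416, edgeR). Both act before the step of argB, the ornithine carbamoyltransferase that SAA.111 lacks and the marker of celAΔ restores. argB had 4, 4 and 2 unique reads in the control against 8150, 15329 and 11624 in celAΔ. Whether the arginine genes moved with the marker or with the deletion of celA cannot be told apart in this design. In the reference assembly ANIA_07722 overlaps another locus, ANIA_07721, and the sources used here do not say whether reads were counted by strand.

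biA encodes a bifunctional enzyme of biotin synthesis and entered the set through its aminotransferase activity, for which S-adenosylmethionine gives the amino group. The gene carries the biA1 mutation in both strains. It ranged from 4.69 to 8.97 RPKM in the control and from 2.46 to 3.82 RPKM in celAΔ (log2 FC -1.16 ± 0.35 SE, adjusted p = 0.0165, edgeR), the highest adjusted p of the 20 genes. The call was lost in 4 of 6 fits with 1 library left out, namely without control replicate 1 or 2 or celAΔ replicate 1 or 3, where the adjusted p was at most 0.0628 (edgeR). ANIA_06645, the annotated enzyme of the preceding step of biotin synthesis and a gene chosen after its values were seen, had a log2 FC of -1.18 ± 0.30 (SE).

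The 3 lyases and oxidases had the deepest fall of any role group, to 22.6% of the control by summed RPKM. The sums were 192, 169 and 157 RPKM in the control and 30.9, 41.9 and 44.1 RPKM in celAΔ. All 3 genes fell, at a median log2 FC of -2.51.

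ANIA_07324 encodes N,N-dimethylglycine oxidase, an enzyme of choline and glycine betaine breakdown. The gene had 102, 89.0 and 48.8 RPKM in the control and 12.8, 11.2 and 11.1 RPKM in celAΔ. The celAΔ libraries hardly differed, and the lowest control was still well above them. With a log2 FC of -2.77 ± 0.37 (SE, adjusted p = 0.00156, edgeR), it had the strongest decrease and the lowest adjusted p of the enzymes.

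Phenylalanine ammonia-lyase splits phenylalanine into cinnamate and ammonia, and is encoded by ANIA_06075. Its RPKM was 21.4, 18.3 and 7.64 in the control and 4.71, 2.28 and 1.25 in celAΔ. The 2 strains came closest in control replicate 3 and celAΔ replicate 1, and the spread within celAΔ was wide. The log2 FC was -2.51 ± 0.58 (SE, adjusted p = 0.00721, edgeR), and without celAΔ replicate 1 it was -3.13. The fold thus moved 1.54 times with that library.

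ANIA_08657 encodes a fructosyl amino acid oxidase, which frees amino acids from their sugar adducts. Its levels were 69.1, 61.7 and 101 RPKM in the control and 13.4, 28.4 and 31.7 RPKM in celAΔ. Control replicate 3 was the highest of all libraries and celAΔ replicate 1 the lowest. The log2 FC was -1.65 ± 0.42 (SE, adjusted p = 0.00937, edgeR).

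The 3 decarboxylases were split in direction, 2 lower and 1 higher in celAΔ. Aromatic L-amino acid decarboxylase, which makes amines from aromatic amino acids, is encoded by ANIA_10299 and ranged from 5.56 to 7.89 RPKM in the control and from 1.21 to 3.16 RPKM in celAΔ (log2 FC -1.43 ± 0.40 SE). Tyrosine decarboxylase, which makes tyramine, is encoded by ANIA_02091 and ranged from 63.5 to 110 RPKM and from 38.7 to 40.2 RPKM (log2 FC -1.18 ± 0.31 SE). Both passed the test, at adjusted p-values of 0.0134 and 0.0108 in edgeR.

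Glutamate decarboxylase forms 4-aminobutyrate from glutamate and opens the 4-aminobutyrate shunt. Its gene ANIA_07278 had 2, 0 and 46 unique reads in the control against 204, 617 and 510 in celAΔ, or 0.345, 0 and 8.14 RPKM against 28.1, 75.7 and 78.0 RPKM. It was the only enzyme of the set to rise in celAΔ, and the control libraries differed strongly among themselves. The log2 FC was 4.40 ± 1.30 (SE, adjusted p = 0.0151, edgeR). Without control replicate 3 the fitted log2 FC was 8.24. Scaled to the mapped totals, the reads of celAΔ were 332.6 times those of control replicates 1 and 2, with an exact 95% counting interval of 91.9 to 2749. Against control replicate 3 alone the ratio was 7.44, with an interval of 5.55 to 10.2. These intervals cover counting error only. The direction was thus the same against each control, while the size of the rise rested on control replicate 3. As this gene rose and ANIA_02091 fell, the summed RPKM of the decarboxylases overlapped between the strains, with 103, 115 and 79.6 RPKM in the control and 71.5, 118 and 118 RPKM in celAΔ. In control replicates 1 and 2 ANIA_07278 was the lowest of the 20 genes by RPKM, but in control replicate 3 it lay above ANIA_02723, biA, ANIA_06075 and ANIA_10299. In celAΔ its range overlapped those of ANIA_06227, ANIA_02091, ANIA_08484, ANIA_08657 and ANIA_05591.

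**Figure D3:**
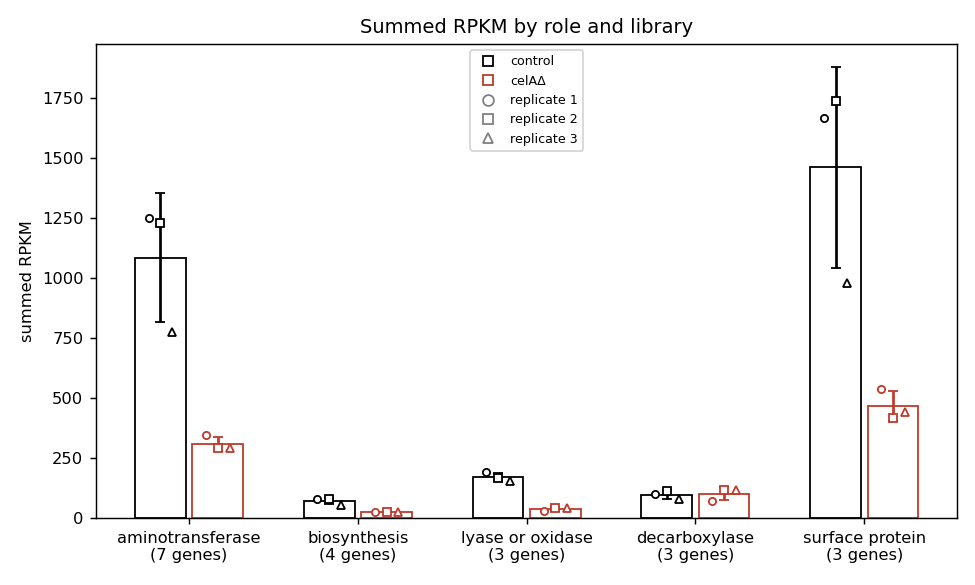
Summed RPKM of the genes of each role in each library; bars are the mean of 3 libraries, error bars ± 1 SD, and symbols the single libraries of the control (black) and celAΔ (red). The strains are apart in the aminotransferases (777 to 1252 against 292 to 346 RPKM), and overlap in the decarboxylases.

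Over all 17 enzymes the summed RPKM was 1628, 1592 and 1071 in the control and 473, 480 and 481 in celAΔ. The mean of the control was 1430 ± 312, against 478 ± 4.59 for celAΔ (SD, n = 3 each). The celAΔ sums were thus nearly equal, although they combined a rise of ANIA_07278 with falls of the others, and the control sums were spread by replicate 3. These are levels of RNA in whole cultures, in which fewer cells of a type and less RNA per cell cannot be told apart.

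The 3 serine-threonine rich surface proteins did not move together. ANIA_04049, a protein annotated with a glycosylphosphatidylinositol (GPI) anchor, which holds proteins to the membrane or wall, was the most abundant of the 20 genes in the control. It had 1460, 1567 and 765 RPKM in the control and 188, 124 and 132 RPKM in celAΔ. The log2 FC of -3.09 ± 0.43 (SE, adjusted p = 0.00173, edgeR) was the strongest decrease of the set.

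ANIA_01338, also annotated as GPI-anchored, went the opposite way. It had 138, 110 and 162 RPKM in the control and 322, 263 and 279 RPKM in celAΔ, where it was the most abundant of the 20 genes. The log2 FC was 1.07 ± 0.30 (SE, adjusted p = 0.0124, edgeR), and it fell below the fold limit without control replicate 2, at 0.94, and without celAΔ replicate 1, at 0.98. The third of these genes, ANIA_08484, is annotated as the cell wall galactomannoprotein Mp1 and ranged from 51.4 to 69.3 RPKM in the control and from 26.4 to 32.2 RPKM in celAΔ. Its log2 FC was -1.02 ± 0.28 (SE, adjusted p = 0.0118, edgeR), and was -0.90 without control replicate 1 and -0.94 without celAΔ replicate 1, where the call was lost.

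By level the order of the set differed between the strains. In the control ANIA_04049, ANIA_06227 and ANIA_06338 led, with means of 1264 ± 435, 444 ± 225 and 292 ± 39.5 RPKM (SD, n = 3), and the ranges of ANIA_06227 and ANIA_06338 overlapped. In celAΔ the order was ANIA_01338 at 288 ± 30.6, ANIA_04049 at 148 ± 34.8, ANIA_06338 at 95.8 ± 5.78, ANIA_01993 at 86.1 ± 8.24 and ANIA_06227 at 67.9 ± 13.1 RPKM (SD, n = 3). The ranges of the neighbours ANIA_06338 and ANIA_01993 overlapped, as did those of ANIA_01993 and ANIA_06227. At the low end ANIA_02723 and ANIA_10299 had means of 1.22 ± 0.354 and 2.50 ± 1.12 RPKM in celAΔ and overlapped too. In 14 of the 20 genes every library held 50 or more unique reads. All reads of the 20 genes were unique, so none was shared with a similar gene.

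The calls depended on the scale and on the number of genes over which p was adjusted. With DESeq2's size factors or with libraries scaled by the listed genes' median, the median of all listed genes shifted by 0.68 or 0.69 on the log2 scale, and 9 of the 20 genes passed, 7 lower and 2 higher. Of the 1375 listed genes, 959 passed with DESeq2, 346 lower and 613 higher, and 937 with median scaling, 341 lower and 596 higher. The same 7 of the 20 genes passed as lower under both scalings: ANIA_06227, ANIA_05591, ANIA_05957, ANIA_02723, ANIA_07324, ANIA_06075 and ANIA_04049. None of the 20 genes changed direction. With p adjusted over the 10516 loci of the assembly, as if all had been tested, 10 of the 20 genes passed, all lower. In this adjustment 38.1% of all listed genes passed, 25.6% lower and 12.5% higher, and the highest adjusted p of the set was 0.126, for biA.

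Control replicate 3 stood between the strains in many of the genes, as it did in the rest of the table. Its position was measured on a log2 scale of reads relative to the mapped total, with 0 at the mean of control replicates 1 and 2 and 1 at the mean of celAΔ. Over the 20 genes the median position was 0.29, beside 0.36 over all listed genes and 0.30 over those with a negative log2 FC. The position was highest in ANIA_07278 at 0.61, biA at 0.59 and ANIA_06227 at 0.53. It was below 0, away from celAΔ, in ANIA_08657 at -0.42, ANIA_10299 at -0.25, ANIA_01993 at -0.24 and ANIA_05957 at -0.14. Control replicate 3 was the lowest control in 13 of the 18 genes that fell, or 72.2%, and in 75.1% of all listed genes with a negative log2 FC.

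**Figure D4:**
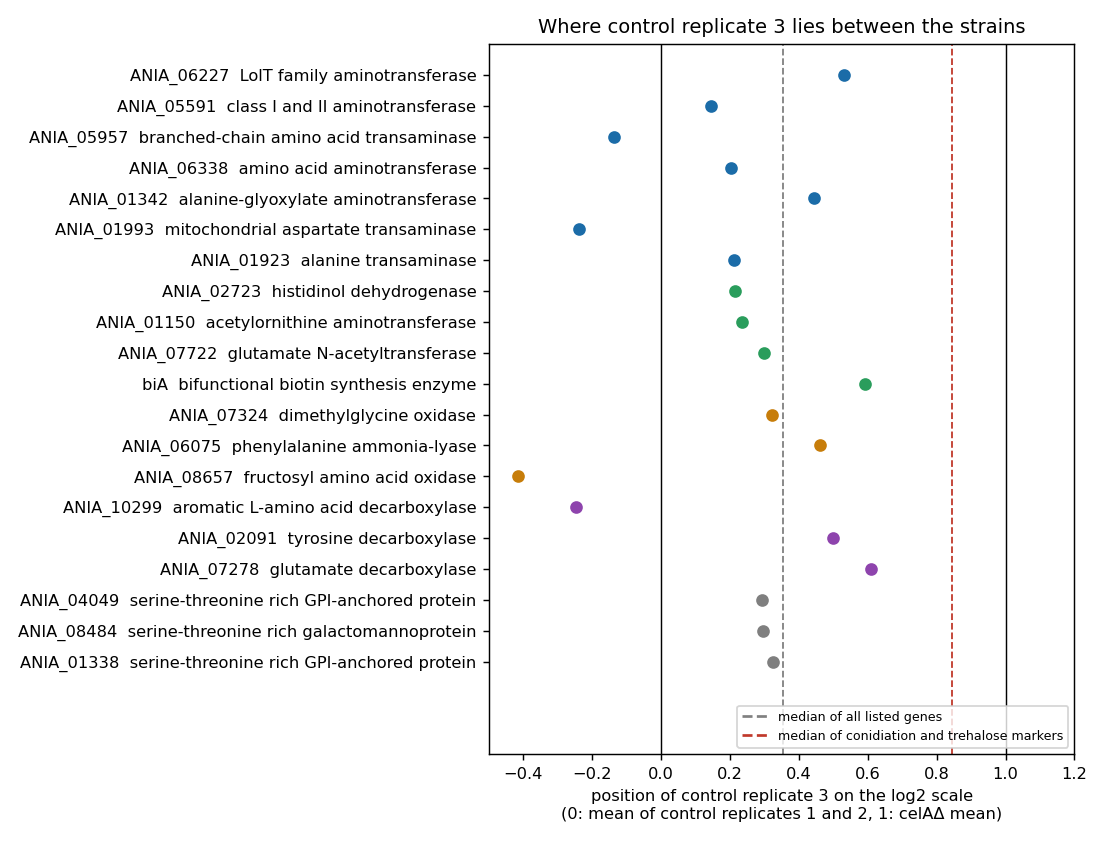
Position of control replicate 3 in each of the 20 genes on the log2 scale, where 0 is the mean of control replicates 1 and 2 and 1 the mean of celAΔ, coloured by role; the dashed lines are the medians of all listed genes (0.36, grey) and of the conidiation and trehalose genes (0.84, red). All 20 genes lie to the left of the red line, between -0.42 and 0.61.

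Markers of conidia, the asexual spores, moved with the same library. The list held 4 conidiation genes, with ANIA_05086, ANIA_10628, ANIA_05015 and flbD, and 3 genes of trehalose synthesis, a sugar that conidia store. All 7 had a positive log2 FC, up to 3.24, and 2 of them passed the test, in a table where 41.1% of genes passed as higher. The 4 conidiation genes were taken from the paper, which names them for their higher expression, so their direction was fixed by that choice. The list is not complete, and fluG, a listed developmental gene outside it, had a log2 FC of -1.71. ANIA_05015, annotated as conidiation-specific protein 10, had 2.17, 1.22 and 943 RPKM in the control and 1128, 1731 and 2529 RPKM in celAΔ. Summed over the 7 genes, control replicates 1 and 2 had 244 and 245 RPKM, control replicate 3 had 2381 RPKM, and the celAΔ libraries had 3969 to 5215 RPKM. ANIA_10628, annotated as similar to a SpoC1 protein, was at 0 in control replicate 2. The position of control replicate 3 in the 7 genes was 0.60 to 0.90, with a median of 0.84. Their part in the lower levels of the enzymes was not tested. Without control replicate 3 the median log2 FC of the 20 genes was -1.57 and 19 of them passed. Over all listed genes the median in that fit was -1.09, and 1321 of 1375 passed.

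The enzymes of this set were read beside 36 other listed genes of amino acid metabolism, in lists that had been chosen with results of these data known. Of the 36 genes 35 passed the test, 30 lower and 5 higher, and 16 passed with p adjusted over all loci. Their median log2 FC was -1.74, and -1.71 with the genes at the read limit set to their bounds, beside -1.04 and -1.03 over all listed genes. As in the set itself, such counts lie in a table where 93.6% of genes passed.

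Branched-chain amino acid breakdown follows the step of ANIA_05957, and its 5 listed genes, of 6 looked for, were all lower, with a median log2 FC of -1.91. ANIA_03591, annotated as methylmalonate-semialdehyde dehydrogenase of valine breakdown, changed by -2.19 and ANIA_04688, annotated as similar to isovaleryl-CoA dehydrogenase of leucine breakdown, by -1.94. In ANIA_03591 the levels were 247, 261 and 105 RPKM in the control and 36.8, 45.2 and 52.5 RPKM in celAΔ, with control replicate 3 again the lowest control.

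Of 9 genes listed for kynurenine and tryptophan breakdown, 8 fell and 1 rose, with a median log2 FC of -1.90. The largest changes were in ANIA_05068 at -4.86 and ANIA_01858 at -4.59, but these are 2 of 4 genes in the list that the table annotates only as conserved hypothetical proteins. Among those with an annotated function, kynureninase ANIA_01857, which splits kynurenine, had 270, 236 and 145 RPKM in the control and 15.7, 38.2 and 41.2 RPKM in celAΔ (log2 FC -2.78). The indoleamine 2,3-dioxygenases, which open the ring of tryptophan, were divided. ANIA_09108 fell at -2.11 and ANIA_02509 rose at 1.18.

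Of 3 genes listed for phenylalanine and tyrosine breakdown, 2 fell and 1 rose. ANIA_01899, annotated as 4-hydroxyphenylpyruvate dioxygenase, fell at a log2 FC of -1.53, while ANIA_06390, a putative homogentisate 1,2-dioxygenase, rose at 2.25. The levels of ANIA_06390 were low, with 0.777, 0 and 0.399 RPKM in the control and 2.33, 1.80 and 1.90 RPKM in celAΔ. Both genes of sulfur amino acid metabolism fell, the putative cysteine dioxygenase ANIA_04081 at -1.86 and cystathionine gamma-synthase ANIA_11168 at -1.46. The 5 genes of amine oxidation, which act on amines such as those that decarboxylases form, fell with a median of -2.39. The 2 strongest were the amine oxidase ANIA_01586 at -3.21, at 1.62 to 5.93 RPKM in the control, and the peroxisomal copper amine oxidase ANIA_07641 at -2.71, at 75.0 to 174 RPKM in the control.

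The 6 listed genes of aminoacyl-tRNA synthesis, which load amino acids onto tRNA, fell with a median of -1.34, and of -1.23 with ANIA_08653 at its bound. ANIA_07479, a putative asparaginyl-tRNA synthetase, changed by -1.65. ANIA_08653, a glutamyl-tRNA(Gln) amidotransferase subunit, had 4, 2 and 4 reads in the control against 0 in every celAΔ library, at least 1.44-fold lower against 3 reads per library. Amino acid transporters went both ways, with 2 lower, 3 higher and 1 that did not pass, of 7 looked for. ANIA_06442 had 112, 128 and 166 reads in the control against 0 in all celAΔ libraries, at least 59.2-fold lower against 3 reads per library. Listed loci with close numbers also fell, with fitted log2 FC of -11.1 in ANIA_06443, -4.69 in ANIA_06444, -6.85 in ANIA_06439 and -10.9 in ANIA_06438. Whether a stretch of the genome was lost or silent in the celAΔ clone was not tested. ANIA_08279, annotated as a basic amino acid transporter, fell at -2.78, and ANIA_06757 rose at 2.09. The methionine transporter ANIA_01631, at a log2 FC of 1.00 ± 0.38 (SE), did not exceed the fold limit.

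**Figure D5:**
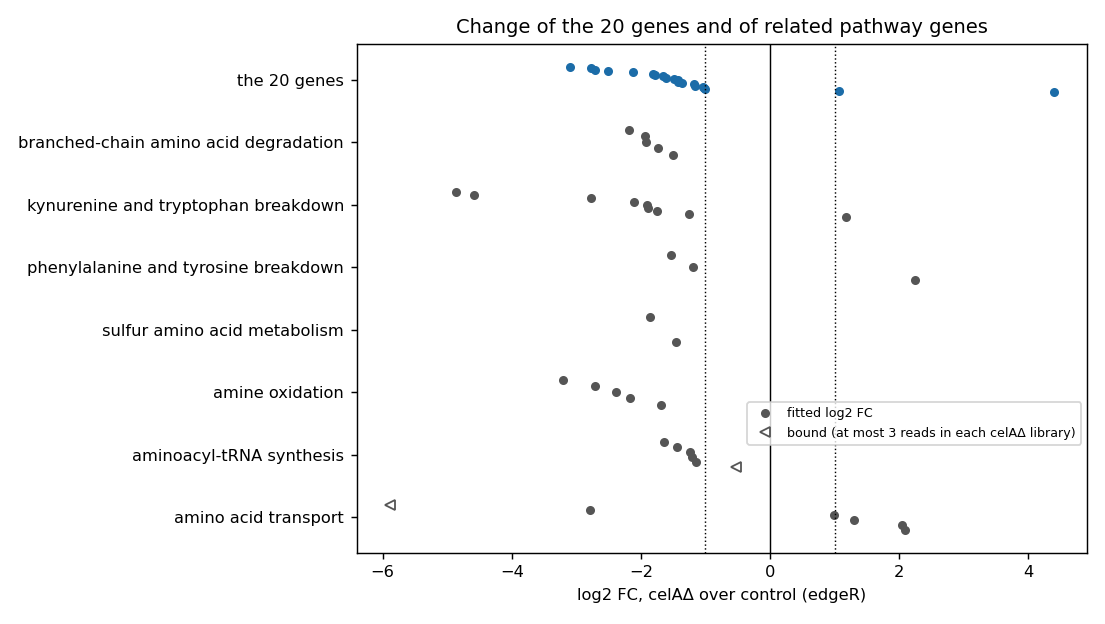
Log2 FC in celAΔ over the control from edgeR for the 20 genes (blue) and for 36 related genes in 7 lists (grey); dotted lines mark the fold limit of 1 in either direction, and open triangles mark genes with at most 3 reads in each celAΔ library at their bound. The branched-chain, sulfur and amine lists lie wholly below -1, the other lists except aminoacyl-tRNA synthesis hold genes on both sides of 0, and 4 of the 9 genes in the kynurenine list have no annotated function.

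By gene order in the assembly, 19 of the 20 genes could be placed, and 7 of their 38 immediate neighbours were listed too. This was 18.4% of the neighbours, beside 13.1% of all loci that were listed. In 5 of the 7 cases the neighbour moved in the same direction. Of the 1375 listed genes 727 had a negative and 640 a positive log2 FC, beside 18 and 2 of the 20 genes. ANIA_10795, next to ANIA_06227 and annotated only as a conserved hypothetical protein, had 22.9, 22.0 and 14.8 RPKM in the control and 4.18, 4.42 and 3.63 RPKM in celAΔ (log2 FC -2.28 ± 0.31 SE). ANIA_02358, next to ANIA_10299, fell at -4.29, and ANIA_10921, a NACHT and WD domain protein next to ANIA_07278, rose at 1.79. The other 2 moved against their neighbour. ANIA_10758, next to ANIA_05957, rose at 1.62, and ANIA_07279, on the other side of ANIA_07278, had 5 reads in each control library and 2 in each celAΔ library.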

How the data were processed

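The 6 libraries were sequenced on an Illumina MiSeq as paired reads. After trimming and filtering, the authors mapped the reads to the A. nidulans FGSC A4 transcriptome in CLC Genomics Workbench 9.0.1. Per gene and library, the authors deposited raw counts of uniquely mapped reads and RPKM values, scaled to gene length and mapped reads. Mean RPKM per strain and unadjusted p-values of the authors' own test were also deposited and were not used here. The smallest fold between mean RPKM values in the table was 2.001.

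A mapped total per library was recovered from reads, length and RPKM, and it gave back the reads of 98.5% or more of the genes to within 1 read. In the supplementary list of mapped reads, the entries of the replicates numbered 2 appear exchanged between the strains relative to the recovered totals, which fit the deposited RPKM and were used. These totals served as library sizes in edgeR 4.0.16 (R 4.3.3), with no normalization factors, all 6 libraries in 1 fit, no covariate and 0.125 as prior count. The standard error of a two-sided test is the size of log2 FC over the square root of F. The common biological coefficient of variation was 46.8%. Positions of control replicate 3 used log2 of CPM plus 0.5, with the mapped totals as depth. A strain with at most 3 reads in each library gives a bound against 3 reads per library. Code was tested on simulated data with less variation and a smaller share of changed genes than in this table. That test does not give the error rates here. Gene order came from the start positions of the loci in assembly ASM1142v1.

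The alternatives were limma 3.58.1 on log2(RPKM + 1) and log2(RPKM + 0.1), voom, DESeq2 1.42.0, TMM factors, median scaling, a replicate block, a mean RPKM of at least 1, adjustment over all loci and each library left out. The members and lists were chosen with earlier results of these data known. Values per library are given for genes with an absolute log2 FC over 1.5 or a direction opposite to their role group, and ranges for the rest. Of each related list the 2 largest changes past the threshold are named. ANIA_01857, ANIA_09108, ANIA_02509, ANIA_01631, ANIA_06757, ANIA_06645, fluG, the neighbouring loci and the loci numbered close to ANIA_06442 were named after their values were seen.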

Additional observations from a re-analysis of the deposited data

How the results depend on the processing

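All 18 decreases and both increases kept their direction under each of the 15 alternatives. The number of genes that passed, 20 of 20, fell to 9 with DESeq2 and its own size factors, to 9 with libraries scaled by the listed genes' median, and to 10 with adjustment over all loci. It was 17 with limma on log2(RPKM + 1), 19 with limma on log2(RPKM + 0.1), and 20 with voom, TMM factors or a mean RPKM of at least 1. With 1 library left out it was 17 to 19. The median log2 FC of the set was -0.784 with DESeq2 and -0.780 with median scaling, and -1.57 to -1.43 with 1 library left out. Over all listed genes, 524 passed with adjustment over all loci, and 992 to 1321 with 1 library left out. With DESeq2 959 passed, of which 36.1% were lower against 56.1% in the main comparison, and with median scaling 937 passed, of which 36.4% were lower. In the 36 related genes, 16 passed with adjustment over all loci, 25 with either of the rescaled fits, and 32 to 35 with 1 library left out. Both rescaled fits shifted the median of all listed genes by 0.68 to 0.69, and adjustment over all loci raises the number of tests from 1375 to 10516. With the replicate block 19 of the 20 genes passed, and ANIA_01993 was lost at an adjusted p of 0.0542 in edgeR. The deviations of same-numbered libraries correlated at 0.172, -0.171 and 0.140 over 1308 genes. Libraries of different numbers correlated at -0.201 to 0.191. The labels name no pairing, and with 3 libraries per strain these correlations cannot decide whether the numbers are one. ANIA_02723, ANIA_10299 and biA, with under 50 reads in most libraries, and ANIA_07278 in the control are limited by depth.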
